A study of Homo sapiens with 6 samples.

Results

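The transcripts examined here are those of 10 chaperone genes: HSPA1A, HSPA1B, HSPA8, HSPA5 and HSPA9 of the HSP70 family, HSP90AA1 and HSP90AB1 of the HSP90 family, and HSPD1, HSPE1 and HSPH1. The genes were chosen by name, from 59716 genes of the RefSeq GRCh38.p14 table on 25 chromosomes, and every peak that overlapped one by at least 1 bp on its strand was taken. Of the 9974 peaks in 4 lists, 19 lay on these genes. HSP70 proteins bind short hydrophobic stretches of unfolded proteins in a cycle driven by ATP. HSP90 proteins take over clients from HSP70 and help them reach an active state, and the chaperonin of HSPD1 and HSPE1 folds proteins inside mitochondria. Transcription of many of these genes is switched on by heat shock factor, and several of their mRNAs are abundant in dividing cells even without stress.

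The study measured RNA crosslinked to tagged HSP70 proteins in HEK293 Flp-In T-Rex cells. This established line, of human embryonic kidney origin, carries a transgene that tetracycline turns on. The baits were HSPA1A, the stress-inducible HSP70, and HSPA8, its constitutive relative, each with a 3xFLAG-HBH tag and 2 biological replicates; all cells received tetracycline at 1 µg/ml. In FLASH-seq, ultraviolet light fixes RNA to the bait, the bait is purified through its tag, and the RNA left after trimming is sequenced. The labels also describe 2 libraries of tagged GFP, whose peaks were not analysed here, so no peak below has a background from a control bait. Labels of the HSPA1A bait say that its replicate 2 served the submitters only for finding common peaks.

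The baits are made from transgenes, and 2 of the genes examined encode them. The labels do not describe the transgene sequence, so a read within a stretch shared by the transgene and the chromosomal gene cannot be told apart. Replicates 1 and 2 held 2744 and 2059 peaks for HSPA1A, and 3131 and 2040 for HSPA8. Each peak has a whole-number score from the authors, whose meaning is not stated, and scores were used only to place a peak within its own list. Read depth is unknown.

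Peaks were found on 5 of the 10 genes: HSPA1A, HSPA1B, HSPA8, HSPA9 and HSP90AA1. HSPA5, HSP90AB1, HSPD1, HSPE1 and HSPH1 had 0 peaks in the 4 lists. Among 15843 protein-coding genes with a known strand, 6.12% had a sense peak in any list. Of the 19 peaks, 7 lay on snoRNA genes inside HSPA8 and HSPA9, and the other 12 lay on HSPA1A, HSPA1B and HSP90AA1. Outside snoRNA genes, 3 of the 10 genes thus had a peak, against 5.93% of protein-coding genes, and HSPA1A and HSPA1B are near-identical copies. The abundance of these mRNAs was not measured in the lists, and its part in these counts was not tested.

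HSPA1A replicate 1 held 10 of the peaks, on 4 genes, where 2.9% of protein-coding genes had one. HSPA1A replicate 2 held 1, on 1 gene, against 1.33%. HSPA8 replicate 1 held 5, on 4 genes, against 3.77%. HSPA8 replicate 2 held 3, on 2 genes, against 0.789%. For both baits the list numbered 1 held more of these peaks than the list numbered 2. For HSPA8 this depended on the near-identical copy and on the low-scoring peaks. Without HSPA1B the HSPA8 lists held 3 and 3. With the 2040 top-scoring peaks of each list they held 0 and 3, but 2040 is the full length of HSPA8 replicate 2. Its 3 peaks therefore could not change under that setting. Among peaks scoring at or above the list median, both HSPA8 lists held 0.

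**Figure D1:**
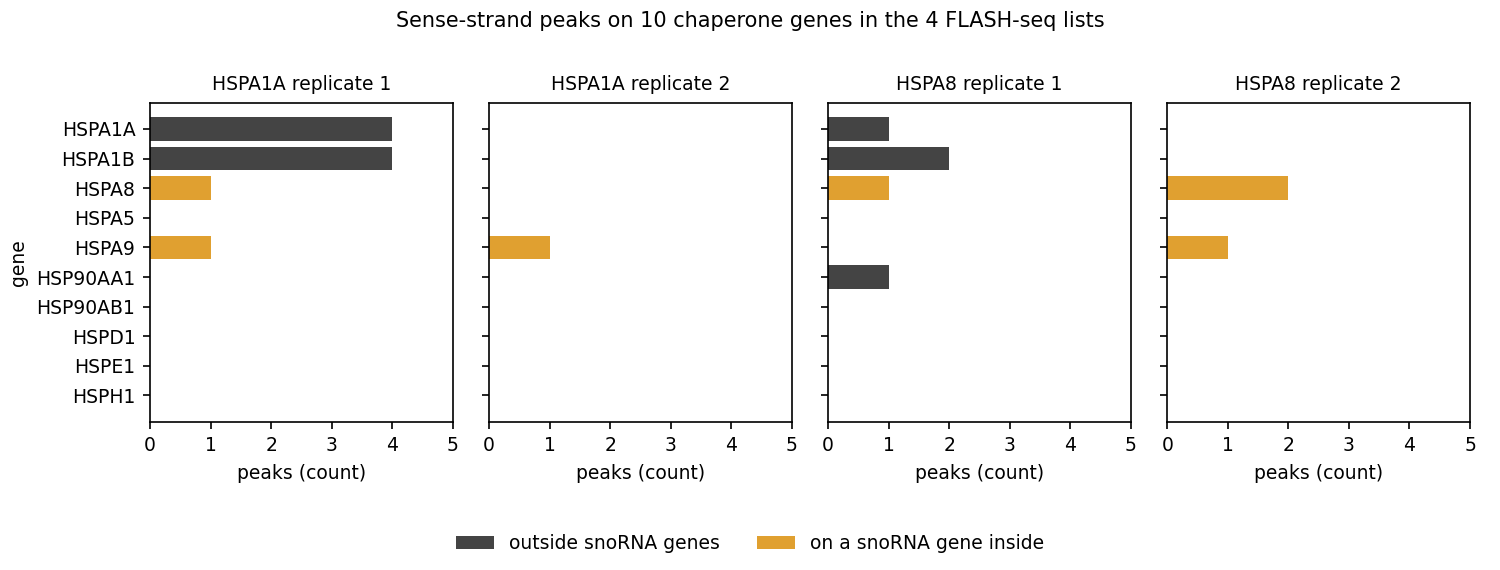
Number of sense-strand peaks (horizontal axis, count) on each of the 10 chaperone genes (vertical axis) in each of the 4 peak lists, split into peaks on a snoRNA gene inside the gene and peaks elsewhere. HSPA1A and HSPA1B carry 4 peaks each in HSPA1A replicate 1, every peak on HSPA8 and HSPA9 lies on a snoRNA gene, and 5 genes are empty in all 4 lists.

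The baits were compared by the number of peaks on the 10 genes. The HSPA1A bait had a mean of 5.5 ± 6.36 (SD, n = 2) and the HSPA8 bait 4 ± 1.41 (SD, n = 2), so the difference of -1.5 (HSPA8 minus HSPA1A) was smaller than the SD of the HSPA1A lists but slightly above that of the HSPA8 lists. The exact two-sided permutation test gave p = 1, and with 2 lists against 2 it cannot go below 0.33. Leaving out HSPA1A replicate 1 turned the difference to 3. The number of genes with a peak averaged 2.5 ± 2.12 with the HSPA1A bait and 3 ± 1.41 with HSPA8 (SD, n = 2 each; exact permutation p = 1). This difference of 0.5 turned to -1 without HSPA1A replicate 2 or with equal numbers of top-scoring peaks, and to -0.5 without HSPA8 replicate 1.

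As a share of all peaks in a list, the 10 genes took 0.364% in HSPA1A replicate 1 (95% Wilson interval 0.198 to 0.67) and 0.0486% in HSPA1A replicate 2 (interval 0.00857 to 0.275). They took 0.16% in HSPA8 replicate 1 (interval 0.0682 to 0.373) and 0.147% in HSPA8 replicate 2 (interval 0.05 to 0.431). Of the HSPA8 peaks, 353 in replicate 1 and 617 in replicate 2 lay on scaffolds, where none of the 10 genes lies. The HSPA1A lists held 0 such peaks. As a share of peaks on chromosomes, the HSPA8 values were 0.18% in replicate 1 and 0.211% in replicate 2. The order of the HSPA8 lists thus turned, while the HSPA1A shares stayed the same. The intervals reflect the counting of peaks only, and peaks on the same transcript are not independent of each other. The intervals of the 4 lists overlapped.

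The 19 peaks were taken on the strand of the chaperone gene, and 0 further peaks lay on the opposite strand. The 19 include 7 peaks on snoRNA genes and 4 pairs of matching entries on HSPA1A and HSPA1B. Over all protein-coding genes with a known strand, 69.3% of 2528 peak and gene pairs were sense, between 55.3% and 77.7% in the separate lists. No further peak lay within 2000 bp of either end of the 10 genes.

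HSPA1A and HSPA1B, the stress-inducible cytosolic HSP70 genes, lie side by side on chromosome 6, encode nearly the same protein and have no introns. HSPA1A spans chr6:31815543-31817942 and HSPA1B spans chr6:31827738-31830254 (GRCh38, plus strand). In HSPA1A replicate 1, HSPA1A carried 4 peaks. They began 297, 621, 863 and 1135 bp after the gene start, with scores of 6, 5, 8 and 5. HSPA1B carried 4 peaks of the same widths and the same scores in that list, each exactly 12194 bp from its partner. The lists do not show which copy the reads of these 8 entries came from, and the sequence under them was not compared.

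In HSPA8 replicate 1, HSPA1A carried 1 peak, from 31817178 to 31817289, with a score of 5. HSPA1B carried a peak at the matching place, from 31829343 to 31829483, with a score of 6. Shifted by 12194 bp the ends of these peaks coincide, but the HSPA1B peak begins earlier and is wider, 141 bp against 112 bp. HSPA1B had a further peak with a score of 5 from 31827737 to 31827804, which starts 1 bp before the annotated gene start, and HSPA1A had none there.

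The start of the transcripts is shown because this is the place where HSPA8 replicate 1 listed a peak on HSPA1B alone. The stretches are chr6:31815543-31815572 for HSPA1A and chr6:31827739-31827768 for HSPA1B, plus strand, GRCh38.p14 from RefSeq, aligned without gaps. Capitals mark bases that differ.
HSPA1A: aacggcTagcctgaggagctgctgcgaCAg
HSPA1B: aacggcCagcctgaggagctgctgcgaGGg
Counted from 1 at the first base shown, with the HSPA1A base first, the differences were T7C, C28G and A29G. Over 48 bases from the same start, 7 differed (85.4% identical), and over the 250 bases before it 15 differed (94% identical). The copies thus differ in sequence in the part of the HSPA1B peak compared, which is 48 of its 68 bp. The stretches are 12196 bp apart, the distance with the fewest differences of those tried, whereas the matching peaks lie 12194 bp apart. Whether the reads of this peak can be assigned to 1 copy was not tested.

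In the lists numbered 1, the peaks of the baits on this pair of genes lay at different positions. The HSPA1A bait is made from a transgene, and reads from a stretch it shares with these genes cannot be told apart. The HSPA1A replicate 1 peaks fell between 297 and 1161 bp from the HSPA1A start, and their midpoints lay between 14.5% and 47.9% of its length. The HSPA8 replicate 1 peak on HSPA1A had its midpoint at 70.5%. With positions on HSPA1B shifted by 12194 bp onto HSPA1A, 0 of the 3 HSPA8 peaks overlapped an HSPA1A peak. These 3 include the pair at matching places on HSPA1A and HSPA1B. Each side of this contrast rests on 1 list, since both lists numbered 2 had 0 peaks on HSPA1A and HSPA1B, and it has no replicate check. Together the peaks of all lists covered 18.6% of HSPA1A and 21.5% of HSPA1B.

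**Figure D2:**
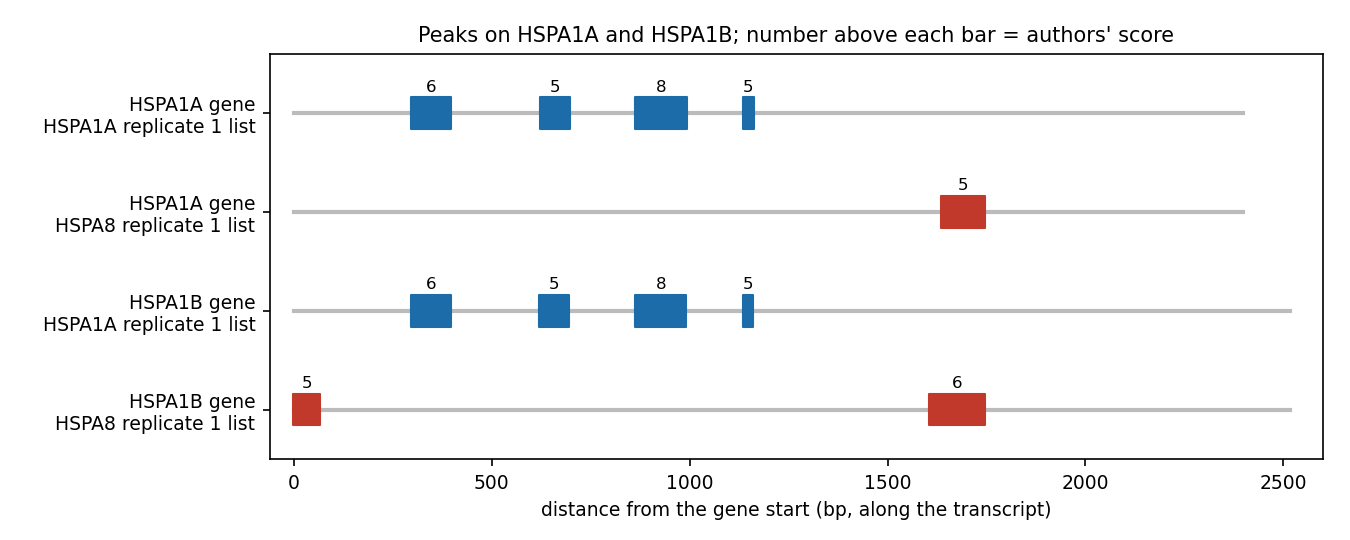
Peaks on HSPA1A and HSPA1B in the replicate 1 lists, by distance from the gene start in bp (horizontal axis), with gene lengths in grey and the authors' score above each bar. The HSPA1A list shows the same 4 bars on both genes, while the HSPA8 list has a bar between 1605 and 1746 bp on both genes and 1 at the start of HSPA1B only.

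HSPA8, the constitutive cytosolic HSP70 and itself a bait, lies at chr11:123057489-123062462 on the minus strand and is the host of the box C/D snoRNA genes SNORD14C, SNORD14D and SNORD14E. Box C/D snoRNAs are cut from introns of a host transcript and guide methylation or cleavage of ribosomal RNA. The gene carried 4 peaks, and all 4 lay on snoRNA genes. SNORD14C, at chr11:123059335-123059422, had a peak with a score of 9 in HSPA1A replicate 1. The HSPA8 bait gave scores of 6 and 7 there, in replicates 1 and 2, and HSPA1A replicate 2 had no peak. Those peaks overlapped the 88 bp snoRNA gene by 88, 85 and 69 bp and reached at most 1 bp past its ends.

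SNORD14E, at chr11:123058077-123058156, had 1 peak, in HSPA8 replicate 2, with a score of 5. It covered 40 of 80 bp, on the side of the lower coordinate, which is the 3′ side on the strand of the peak. SNORD14D, and the family members SNORD14A and SNORD14B outside HSPA8, had 0 peaks. The HSPA8 sequence outside its snoRNA genes had 0 peaks in either list of the HSPA8 bait, and likewise in those of the HSPA1A bait.

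HSPA9, the HSP70 of the mitochondrial matrix, lies at chr5:138553756-138575401 on the minus strand. Its 3 peaks all lay on SNORD63, a box C/D snoRNA gene at chr5:138561043-138561110. The scores were 5 in HSPA1A replicate 1, 6 in HSPA1A replicate 2 and 9 in HSPA8 replicate 2, and HSPA8 replicate 1 had none. The 3 peaks began at the same lower coordinate as the snoRNA gene and covered 56, 40 and 43 of its 68 bp, again the 3′ side on the strand of the peak. SNORD63B, also inside HSPA9, had 0 peaks, as had SNORA105B inside HSPD1.

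**Figure D3:**
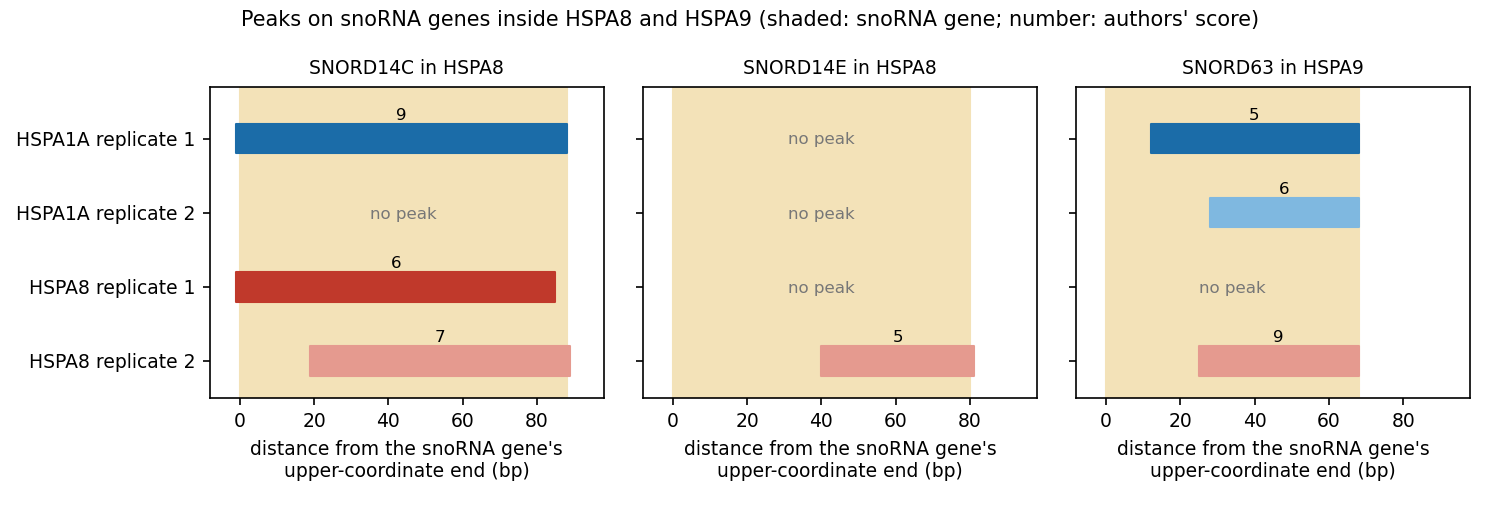
Peaks on SNORD14C, SNORD14E and SNORD63 in each of the 4 lists (rows), by distance in bp from the upper-coordinate end of the snoRNA gene, which is its left edge here because the peaks lie on the minus strand; shading marks the snoRNA gene and numbers are the authors' scores. Peaks stay within the snoRNA gene to within 1 bp, and those on SNORD63 all end at the same edge.

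Of the 6 snoRNA genes inside the 10 chaperone genes, 3 had a peak in any list, against 10.8% of 618 snoRNA genes inside protein-coding genes. The background in the separate lists was 7.28% and 2.43% for HSPA1A and 2.27% and 6.47% for HSPA8. Among all sense peaks on protein-coding genes, those on a snoRNA gene made up 7.03% and 5.06% with the HSPA1A bait and 1.66% and 19.2% with HSPA8, in replicates 1 and 2. On the chaperone genes this held for 2 of 10 and 1 of 1 peaks with the HSPA1A bait, and for 1 of 5 and 3 of 3 with HSPA8. In both lists numbered 2, each peak on a chaperone gene was therefore a snoRNA peak, and all 12 peaks outside snoRNA genes came from the lists numbered 1. These 12 include 4 pairs of entries with the same width and score on HSPA1A and HSPA1B. Over all protein-coding genes, sense peaks outside snoRNA genes numbered 516 and 244 with the HSPA1A bait and 711 and 135 with HSPA8. The lists numbered 1 thus held most of such peaks in general.

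The 2 regions of these genes that recurred between lists lay on snoRNA genes. The 19 peaks formed 15 regions, of which 13 appeared in 1 list and 2, at SNORD14C and SNORD63, appeared in 3. The 13 include 4 pairs of matching entries on HSPA1A and HSPA1B, counted once for each copy. No region, and none of the 10 genes, had a peak in all 4 lists, where 0.467% of protein-coding genes did. Of 1198 such regions on protein-coding genes in general, 80% appeared in 1 list, 5.26% in 3 and 7.1% in 4. How many of the recurring ones lay on snoRNA genes was not counted. By gene, HSPA9 had a peak in both HSPA1A lists, against 0.839% of protein-coding genes, and HSPA8 had a peak in both HSPA8 lists, against 0.53%.

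HSP90AA1, the inducible cytosolic HSP90, carried 1 peak, in HSPA8 replicate 1, from 102083226 to 102083300 on chromosome 14, minus strand, with a score of 6. The gene spans chr14:102080742-102139749, and most of that length precedes an internal transcript start listed at 102087044. The peak lies 3744 bp downstream of that internal start and 2484 bp before the gene end. Exon positions were not used here, so its place in exon or intron is not given. HSP90AB1, the constitutive cytosolic HSP90 at chr6:44246194-44253883, had 0 peaks.

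The other genes without a peak cover further compartments and roles. HSPA5, also called BiP, is the HSP70 of the endoplasmic reticulum and lies at chr9:125234853-125241343. HSPD1 and HSPE1, which encode the mitochondrial chaperonin HSP60 and its lid HSP10, are neighbours at chr2:197486584-197500274 and chr2:197500379-197503449 and are read in opposite directions. HSPH1, a nucleotide exchange factor for HSP70, lies at chr13:31134973-31162388. The genes with peaks included the shortest of the 10, HSPA1A and HSPA1B, at 2400 and 2517 bp, and the longest, HSP90AA1, at 59008 bp. The part of gene length in these counts was not tested.

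The 19 peaks ranked low within their lists. Their scores ran from 5 to 9 with a median of 6, whereas whole lists had medians of 10 and 13 with the HSPA1A bait and 10 and 22 with HSPA8, and the highest scores per list lay between 3014 and 6560. All 19 were below the median of their own list. Scores under 5 were given to between 20 and 49 peaks per list, so a score of 5 is near the bottom. The highest chaperone peak of each list was exceeded by 51.4% and 76.5% of all peaks with the HSPA1A bait, and by 65.1% and 74.1% with HSPA8. On protein-coding genes in general, sense peaks outside snoRNA genes had median scores of 6 and 10 with the HSPA1A bait, and 5 and 13 with HSPA8. In the lists numbered 1 the chaperone peaks, snoRNA peaks included, had similar medians of 5.5 with HSPA1A and 6 with HSPA8. In the lists numbered 2 all chaperone peaks lay on snoRNA genes and scored at most 6 and 9, below those medians. Scores of other snoRNA peaks were not compared.

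**Figure D4:**
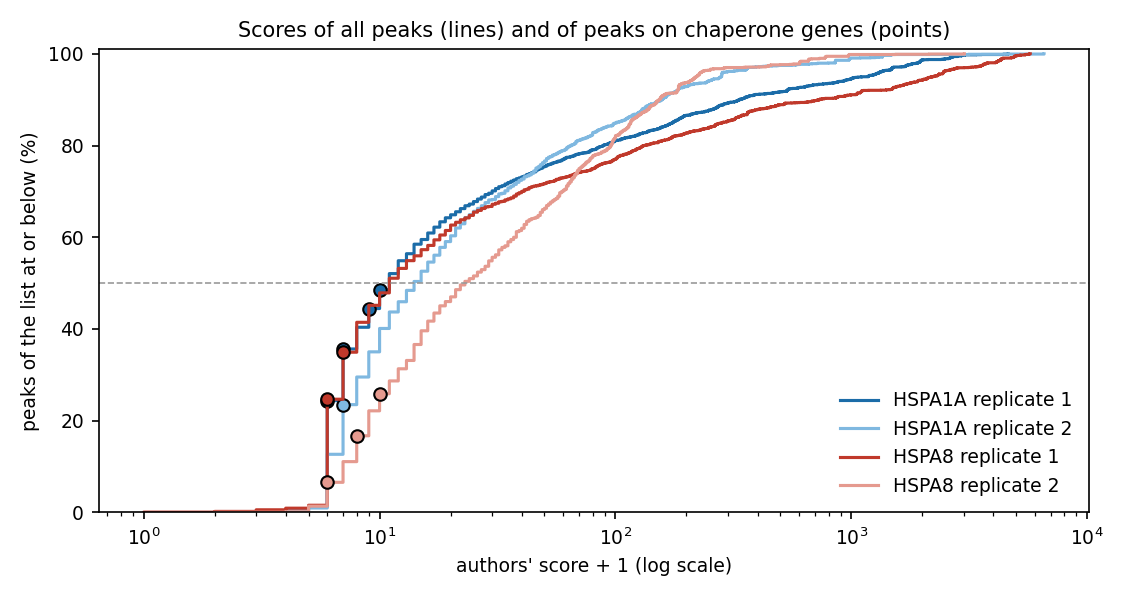
Cumulative share of peaks in each list (vertical axis, %) at or below a given score (horizontal axis, authors' score plus 1, log scale), with the scores of peaks on chaperone genes as points on the line of their list. Every point sits under the dashed line at 50%.

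A list of other chaperones, cochaperones and heat shock factors was examined in the same way. Of its 60 genes with a known strand, 5 had a sense peak in any list (8.33%, against 6.12% of protein-coding genes): 4 in HSPA1A replicate 1 and 1 in each of the other lists. DNAJC3, a J-domain cochaperone of the endoplasmic reticulum, had a peak in both HSPA1A lists, from 95722812 on chromosome 13, with scores of 14 and 6. CCT3, a subunit of the cytosolic chaperonin, had peaks with scores of 6 in HSPA1A replicate 1 and 5 in HSPA8 replicate 1, at separate places. DNAJC5, a J-domain protein of secretory vesicles, had 2 peaks in HSPA1A replicate 1, with scores of 5 and 8, both on the U1 pseudogene RNU1-134P. PTGES3, the HSP90 cochaperone p23, had 1 peak in HSPA1A replicate 1 with a score of 5. TCP1, another chaperonin subunit, had 1 peak in HSPA8 replicate 2 with a score of 5, on the snoRNA gene SNORA20. With strand ignored, 7 of 71 genes had a peak, adding DNAJB6 (antisense) and DNAJC1, whose strand was not in the table.

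Genes that encode ribosomal proteins gave a point of reference, and the abundance of their transcripts was not measured either. Of 63 ribosomal protein genes with a known strand, 25 (39.7%) had a sense peak in any list and 16 (25.4%) had one outside snoRNA genes, beside 5 and 3 of the 10 chaperone genes. In all 4 lists, 4 ribosomal protein genes and 0 chaperone genes had a peak. No test was made between these groups. Of 84 pseudogenes named after a chaperone gene of the set, 0 had a peak on either strand. Their median length was 1404.5 bp, against 25601 bp for protein-coding genes. The share of other pseudogenes with a peak was not counted, so this 0 has no reference.

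Genes with the most similar peak counts over the 4 lists were found for both bait genes. For HSPA1A, 55 protein-coding genes had a peak in the same lists, and the nearest were HSPA1B, MEF2A and PMF1, whose counts differed from it by 1, 1 and 2 peaks in sum over the lists. For HSPA8, 5 genes had a peak in the same lists, and the nearest were PDS5A, OSTC and EFCAB11, differing by 1, 2 and 3 peaks. None of the peaks on these 3 genes lay on a snoRNA gene, unlike those on HSPA8.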

How the data were processed

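FLASH-seq peak lists of 4 libraries were analysed, 1 per replicate. The authors deposited the coordinates, strand and score of each peak; the unit of the score, a whole number, is not stated. The submitters' processing notes name GRCh38, Trim Galore 0.4.4, FastQC, STAR 2.6.0b and deepTools. Per the labels' protocols, copies made by PCR were merged through random bases in the adapters. The peak caller, its threshold and the handling of reads that match several places are not given in the sources used here; the last bears on HSPA1A and HSPA1B.

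Coordinates are 1-based. Genes came from the RefSeq GRCh38.p14 table. Strand came from its promoter table, which held 15843 of 20050 protein-coding genes and all 10 members; snoRNA genes had no strand there and were matched on either strand. Exons, snoRNA sequences and a genome were not used. Distances are from the outermost gene start.

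The members and lists were chosen with earlier results of these data known. The named genes are the members, overlapped snoRNA genes, genes of the wider list with a peak, and the 3 genes most like HSPA1A and HSPA8. SNORD14A and SNORD14B were named after their values were seen. The baits were compared over lists with an exact permutation test, two-sided, of 6 label orders. Alternatives covered strand, overlap rule, score, list length, chromosomes, merging, gene set, each replicate and the replicate number. Gene overlap counting was tested on simulated peaks. Computations were run with pandas 2.3.3, numpy 2.4.6, matplotlib 3.10.9 and scipy 1.17.1 under Python 3.11.15.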

Additional observations from a re-analysis of the deposited data

How the results depend on the processing

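Of 111 values under other settings, 88 kept their direction or size. Small changes of a per-list count were taken as kept, such as 4 genes against 3 in HSPA1A replicate 1 without HSPA1B. Some of the 88 were fixed in advance. The replicate block cannot change a difference, and leaving out HSPA1B cannot change a snoRNA count. Equal numbers of top-scoring peaks cannot change HSPA8 replicate 2, whose full length of 2040 set that number. No setting gave an exact permutation p below 0.667 between baits, and the test cannot go under 0.33, so an unchanged call says nothing about stability. Strand, both other overlap rules and the restriction to chromosomes of all 4 lists changed no count, but the last moved the difference in share to -0.0111. With scores at or above the list median, 0 peaks on the 10 genes remained in every list, so each count and each bait difference was 0. With equal numbers of 2040 top-scoring peaks, HSPA8 replicate 1 kept 0 genes and 0 snoRNA peaks and HSPA1A replicate 1 kept 1 snoRNA peak; the difference in genes (HSPA8 minus HSPA1A) turned from 0.5 to -1. Without snoRNA peaks, genes with a peak numbered 2 and 0 in the HSPA1A lists and 0 in HSPA8 replicate 2. Without HSPA1B the difference in peaks was -0.5. The difference in share, -0.0531 percentage points, turned to 0.0161 with peaks within 50 bp merged; the cause was not tested. Leaving out each list in turn gave differences from -6 to 3 in peaks, -1 to 2 in genes and -0.211 to 0.105 percentage points in share. HSPA1A replicate 1 decides the sign for peaks and for share, since without it they were 3 and 0.105; for genes the sign turned without HSPA1A replicate 2 (-1) or HSPA8 replicate 1 (-0.5). Per-list counts have no such value. The labels give a replicate number but no shared batch. Deviations of same-numbered lists correlated at 0.669 over the 10 genes, which are not independent. Only the near-identical HSPA1A and HSPA1B held more peaks in the list numbered 1 with both baits. HSPA8 held 1 and 0 peaks in replicates 1 and 2 of the HSPA1A bait, but 1 and 2 with the HSPA8 bait. The correlation is therefore no measure of a shared batch. With the replicate block the difference in peaks was -1.5, in genes 0.5 and in share -0.0531 (exact sign-flip permutation, p = 1 for each; the smallest possible is 0.5). Every count is limited by the unknown read depth.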
